A study of Mus musculus with 10 samples.

Results

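The 46 mitosis genes described here encode proteins that carry a cell through mitosis, from the cyclins and kinases that start it to the motors and scaffolds that split the cell. They were chosen by name, with earlier results of these data known, so they are not a list independent of these data. All 46 were found among the 49671 gene IDs of a raw count table of mouse TH2 cells. TH2 cells are the helper subset known for making IL-4, IL-5 and IL-13. The deficient group comprised 7 libraries from second-generation offspring bred without ultraviolet light and fed a diet free of vitamin D metabolites. The control group comprised 3 libraries from mice given standard chow, in which vitamin D3 was present at 400 IU per kg. Breeding, light and diet cannot be told apart here, so the diet term of the fits below is the difference between groups. All mice were C57BL/6 with the genotype label WT, no further treatment was applied, and naive CD4+ T cells of both groups were cultured under TH2-polarising conditions until harvest on day 5. Batch 1, as the labels name it, held deficient libraries 1 to 5 and control libraries 1 and 2, and batch 2 held deficient libraries 6 and 7 and control library 3. The labels give neither age nor sex. Nothing in them says that each library is a different mouse, so the p-values reflect variation among these libraries. That variation may be only technical, except between libraries that differ in sex, as judged from Xist below.

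An activated T cell divides repeatedly, and its progeny acquire a helper fate while they divide. Cyclin B with CDK1 drives the cell into mitosis, the spindle checkpoint holds it there until each chromosome is attached to both poles, and the anaphase-promoting complex then destroys cyclin B and securin. Most of these genes are transcribed late in the cell cycle, when the B-MYB-MuvB complex and FOXM1 act at a promoter element called the cell cycle homology region (CHR), often with NF-Y at nearby CCAAT boxes, whereas the DREAM complex represses the same promoters in resting cells.

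Promoter sequence was a feature that the choice of genes did not use. RefSeq windows on GRCm38.p6, from 250 bases before to 50 bases after the start site, were matched for 39 of the 46 genes. Ccna2, Cdc25c, Aurkb, Incenp, Kif20a, Tpx2 and Dlgap5 had no window here. The CHR was searched as TTTGAA or TTCGAA and the CCAAT box as CCAAT, on both strands, so TTCAAA and ATTGG were also matches, and TTCGAA reads the same on both strands. A CHR was found in 31 of the 39 windows (79.5%), against 19.4% of all 27025 genes with a window. CCAAT was found in 28 (71.8%, against 37.9%), and both motifs together in 26 (66.7%, against 7.70%). Within 50 bases either side of the start, a window chosen after match positions were seen, 28 of the 39 held a CHR (71.8%, against 5.29%). These matches are a description of letters, and no test was made. The windows follow RefSeq start sites. That of Mad2l1, which held neither motif, ends at chr6:66535270, before the gene's start in GENCODE M21 at 66535390. The window of Pttg1, which also held neither, lies inside the gene, whose minus-strand start is at chr11:43426251. Sequence at those 2 gene starts was not searched.

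The following 120-base stretches end at the RefSeq start site. They are shown because they set promoters with the motifs (Cdc20, Top2a, Cdk1 and Kif11) beside that of Mad2l1, whose window held neither. Capitals mark CHR and CCAAT matches.
Cdc20 (chr4:118437344-118437463, minus strand): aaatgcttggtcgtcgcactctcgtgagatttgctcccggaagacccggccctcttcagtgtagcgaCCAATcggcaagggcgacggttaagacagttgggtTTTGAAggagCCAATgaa
Top2a (chr11:99024190-99024309, minus strand): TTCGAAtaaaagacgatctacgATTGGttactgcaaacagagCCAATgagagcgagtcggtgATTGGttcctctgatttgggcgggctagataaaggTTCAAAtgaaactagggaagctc
Cdk1 (chr10:69352913-69353032, minus strand): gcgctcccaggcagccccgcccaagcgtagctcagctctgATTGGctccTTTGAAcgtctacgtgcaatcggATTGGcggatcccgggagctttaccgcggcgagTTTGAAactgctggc
Kif11 (chr19:37376262-37376381, plus strand): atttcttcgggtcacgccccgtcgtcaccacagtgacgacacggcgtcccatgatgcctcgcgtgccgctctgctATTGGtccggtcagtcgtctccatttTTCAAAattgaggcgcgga
Mad2l1 (chr6:66535101-66535220, plus strand): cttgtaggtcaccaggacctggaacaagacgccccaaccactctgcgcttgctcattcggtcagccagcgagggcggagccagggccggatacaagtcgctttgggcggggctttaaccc

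The next 30-base sites lie on a CHR that begins after the RefSeq start, in genes picked for large falls in RNA. Not all such genes are shown. Ttk, with a match at base 8, Kif14, with its match at base -228, and Pttg1, with none, fell further than Cenpa. Spc25 is added because it carried the motif and did not fall. Capitals mark the CHR and, in Kif23, also a CCAAT box on the other strand.
Kif23 (chr9:61946780-61946809, minus strand): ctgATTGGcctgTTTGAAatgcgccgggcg
Ccnb2 (chr9:70421533-70421562, minus strand): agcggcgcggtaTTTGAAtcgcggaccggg
Cdc25b (chr2:131186943-131186972, plus strand): ccgctgttatttTTCGAAtatataaggagg
Cenpf (chr1:189688067-189688096, minus strand): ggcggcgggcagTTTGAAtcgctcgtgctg
Cenpa (chr5:30666890-30666919, plus strand): ggcgggtgatttTTTGAActgctggcgacc
Spc25 (chr2:69206172-69206201, minus strand): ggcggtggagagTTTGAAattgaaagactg

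Of the 6 members whose windows held neither motif, Melk, Birc5, Nuf2, Pttg1 and Nusap1 were lower in deficient libraries. Mad2l1 also held neither and did not pass, at a log2 fold change of 0.10 (edgeR adjusted p = 0.528). Ccnb1 and Cenpe, which held CCAAT only, were lower. Spc25, which did not fall, held a CHR and 2 CCAAT boxes. The part of these motifs in the fall was not tested.

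RNA of nearly all these genes was lower in TH2 cells from deficient mice. Of the 46, 44 fell and 0 rose at an adjusted p below 0.05 (edgeR's quasi-likelihood test with a batch term and Benjamini-Hochberg adjustment over the 13699 genes tested). In the same comparison 28.6% of all genes tested were lower and 29.4% were higher. The median log2 fold change, deficient minus control, was -1.18 over the mitosis genes and 0.02 over all genes tested. Falls reached at least 2-fold in 30 members, against 8.71% of all genes. In 41 members every deficient library lay below every control library, an order that 21.4% of all genes tested showed. The 46 genes summed to between 3517 and 5775 CPM (counts scaled to a library total of 1000000) in the deficient libraries, with a mean of 4473 ± 848 (SD, n = 7). In control libraries the sum was 8628, 8474 and 8664 CPM, a mean of 8589 ± 101 (SD, n = 3). In these bulk cultures, fewer dividing cells and less RNA per dividing cell cannot be told apart.

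**Figure D1:**
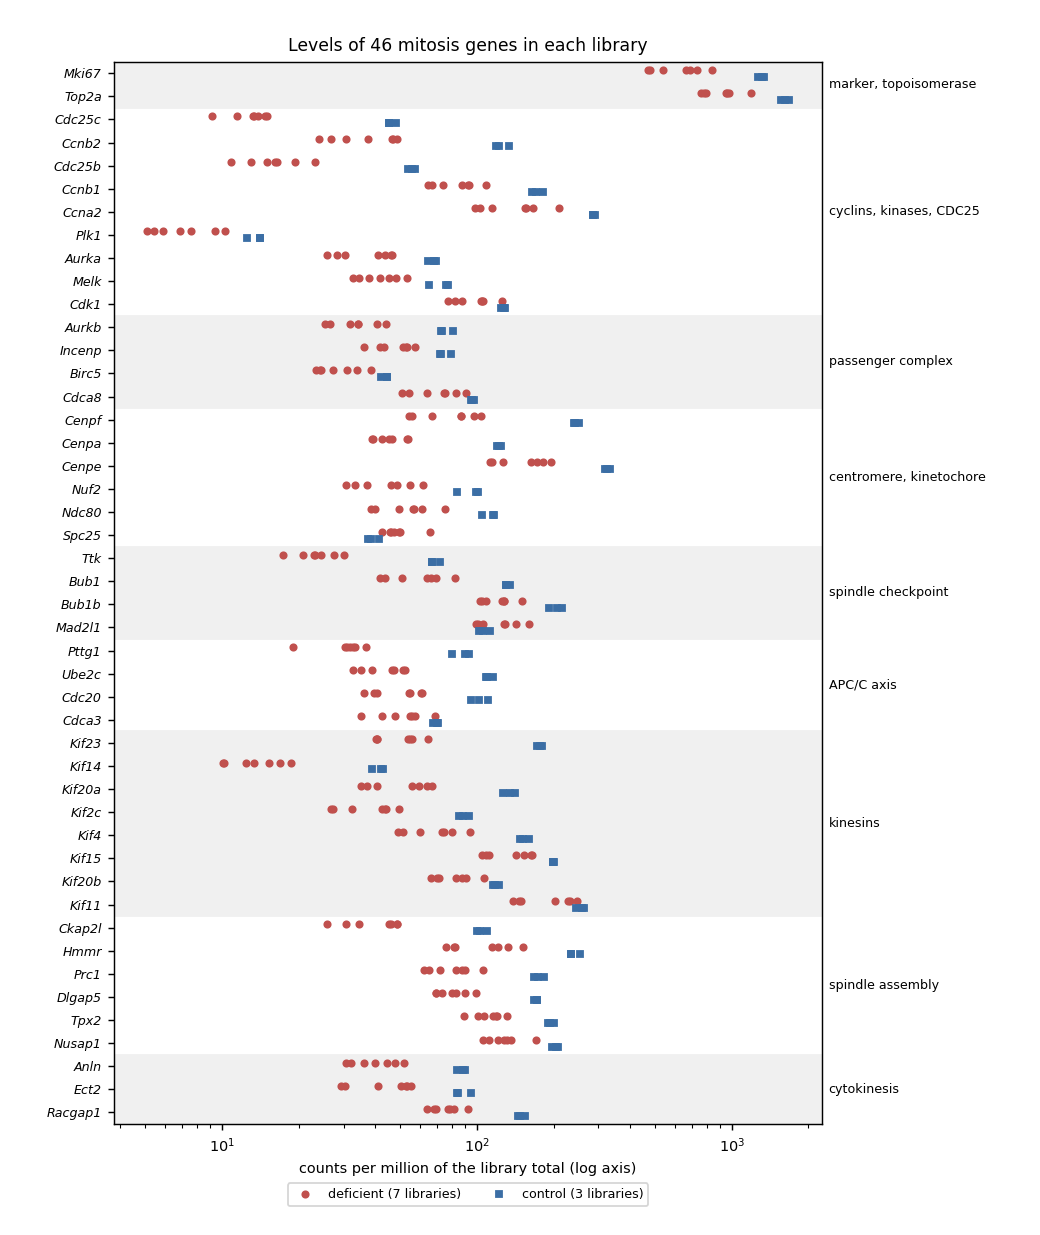
Each row is 1 mitosis gene, grouped by role, and the log x axis gives CPM of the library total. Red circles are the 7 deficient libraries and blue squares the 3 control libraries. The circles lie left of the squares in 41 genes, and Spc25 is the exception in which they all lie to the right.

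Library totals ran from 7029207 to 13433276 counts in deficient libraries and from 5800698 to 6462146 in control libraries, and every member was counted in every library. The T cell markers Cd3e, Cd3d, Cd3g, Cd4, Trac, Lck, Cd5 and Cd28 summed to 1912 to 2131 CPM in deficient libraries and 2868 to 2963 CPM in control libraries, with 7 of 8 lower, and their part in the fall was not tested. The TH2 markers Gata3, Il4, Il5, Il13, Ccr4 and Il1rl1 summed to 296 to 405 CPM in deficient libraries and 294 to 342 CPM in control libraries, sums in which Gata3, Ccr4 and Il1rl1 were lower and Il5 and Il13 higher. Xist, transcribed from the inactive X chromosome of females, was high in deficient libraries 1 and 3, with 657 and 733 CPM, and did not exceed 0.345 CPM in any other library.

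Mki67, which encodes the proliferation marker Ki-67, had 729, 664, 684, 835, 479, 468 and 537 CPM in deficient libraries 1 to 7, against 1313, 1267 and 1337 CPM in control libraries 1 to 3. The groups did not overlap, and the log2 fold change was -1.17 ± 0.15 (SE; edgeR adjusted p = 0.000201). Top2a encodes topoisomerase II alpha, which untangles sister chromatids. It had 951, 979, 959, 1189.8, 781, 756 and 793 CPM in deficient libraries and 1686, 1562 and 1619 CPM in control libraries. Here too all deficient libraries were the lower ones, with a log2 fold change of -0.93 ± 0.10 (SE; edgeR adjusted p = 1.16e-05). Per kilobase of exon, Top2a and Mki67 were the 2 highest members in both groups. Top2a averaged 101.6 CPM per kilobase in deficient and 180.0 in control libraries, and Mki67 62.4 in deficient and 129.8 in control libraries. The member with the lowest level was Kif14, at 1.34 CPM per kilobase in deficient and 3.98 in control libraries.

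The 9 cyclins, kinases and phosphatases of mitotic entry all fell, with a median log2 fold change of -1.14. Cdc25c, a phosphatase that activates CDK1, fell furthest, with 15.1, 13.3, 13.8, 14.8, 9.14, 11.5 and 13.4 CPM in deficient libraries against 48.1, 45.2 and 45.3 CPM in control libraries. No deficient library came near the control range, and the log2 fold change was -1.92 ± 0.13 (SE; edgeR adjusted p = 6.55e-09). Its level is uncertain, since 12.7% of its exon bases lie opposite another gene and 11.9% of its 50-base stretches recur in other genes. Cdk1 itself changed least among the genes that fell, with 105, 104, 106, 126, 77.4, 81.9 and 87.8 CPM in deficient libraries against 124, 127 and 129 CPM in control libraries. Deficient library 4 reached the control range, while the other 6 lay below it, and the log2 fold change was -0.47 ± 0.11 (SE; edgeR adjusted p = 0.00295). Its partner Ccnb1, cyclin B1, had 93.5, 92.4, 87.6, 109, 66.4, 64.1 and 74.0 CPM in deficient libraries and 170.3, 165 and 182 CPM in control libraries. These did not overlap, and cyclin B1 changed by -1.15 ± 0.13 on the log2 scale (SE; edgeR adjusted p = 1.91e-05), with 23.4% of its 50-base stretches shared with other genes. Ccnb2, cyclin B2, fell by 1.88 on the log2 scale and Cdc25b, another CDK1-activating phosphatase, by 1.87. Ccna2, cyclin A2, which acts in S phase and early mitosis, fell by 1.14. Among the kinases, Plk1, which promotes entry and centrosome maturation, fell by 1.05, Aurka, a kinase of the spindle poles, by 0.96, and Melk, a kinase of proliferating cells, by 0.90. Plk1 was scarce, at a mean of 7.19 ± 2.01 CPM in deficient libraries (SD, n = 7) and 13.6 ± 0.872 CPM in control libraries (SD, n = 3).

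All 4 genes of the chromosomal passenger complex, which corrects faulty attachments and later guides cytokinesis, fell, with a median of -0.71. Its kinase Aurkb had 43.9, 34.3, 34.3, 40.7, 25.4, 26.5 and 31.8 CPM in deficient libraries against 72.4, 80.8 and 72.9 CPM in control libraries. The highest deficient library stayed below the lowest control library, at a log2 fold change of -1.26 ± 0.14 (SE; edgeR adjusted p = 1.06e-05). Cdca8, borealin, had 82.7, 74.9, 74.4, 90.8, 50.9, 54.3 and 63.7 CPM in deficient libraries and 95.9, 97.3 and 95.2 CPM in control libraries. The gap between the groups was narrow, and its log2 fold change was -0.56 ± 0.15 (SE; edgeR adjusted p = 0.00799). In batch 1 alone Cdca8 did not pass, at -0.46 (edgeR adjusted p = 0.0681). The scaffold Incenp fell by 0.73 and Birc5, survivin, by 0.69.

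At centromeres and kinetochores, the sites where chromosomes bind microtubules, 5 of 6 genes fell, and the median was -1.21. Cenpf, a large kinetochore protein, had 97.7, 86.4, 86.8, 104, 54.4, 55.6 and 66.5 CPM in deficient libraries against 243, 241 and 252 CPM in control libraries. Even the highest deficient library was far below the controls, and the log2 fold change was -1.76 ± 0.18 (SE; edgeR adjusted p = 3.67e-05). Cenpa, the histone H3 variant that marks centromeres, fell by 1.52, and the kinetochore motor Cenpe by 1.21. In the NDC80 complex, the microtubule anchor of the kinetochore, Nuf2 fell by 1.20 and Ndc80 by 1.18. Spc25, a subunit of the same complex, had 42.6, 49.8, 49.5, 65.4, 45.7, 46 and 47.1 CPM in deficient libraries and 38.6, 37.4 and 41.5 CPM in control libraries. It was the only member in which all 7 deficient libraries lay above all controls, an order that 29.4% of all genes tested showed. The log2 fold change of Spc25 was 0.25 ± 0.11 and missed the threshold (SE; edgeR adjusted p = 0.0617), and without deficient libraries 5 to 7 it was 0.36 (edgeR adjusted p = 0.0307).

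The spindle checkpoint genes divided in the same manner, with 3 of 4 lower and a median of -1.06. Ttk, the kinase that starts checkpoint signalling, had 30.1, 24.4, 23.2, 27.6, 22.9, 20.8 and 17.4 CPM in deficient libraries against 66.7, 66.9 and 71.6 CPM in control libraries. The groups stood well apart, at a log2 fold change of -1.63 ± 0.11 (SE; edgeR adjusted p = 9.21e-09). The kinase Bub1 fell by 1.26 and Bub1b, which encodes the inhibitor BubR1, by 0.86. Mad2l1 encodes MAD2, which binds CDC20 and keeps it inactive. It had 129, 143, 127, 159.6, 101, 106 and 99.3 CPM in deficient libraries and 106, 102 and 113 CPM in control libraries. Deficient libraries 1 to 4 were above all controls and libraries 5 and 7 below them, so that the log2 fold change was 0.10 ± 0.12 (SE; edgeR adjusted p = 0.528). Without deficient libraries 5 to 7, Mad2l1 was higher by 0.34 (edgeR adjusted p = 0.00291).

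All 4 genes around the anaphase-promoting complex fell, with a median of -1.32. The coactivator Cdc20 had 61.0, 54.0, 54.9, 60.4, 40.5, 36.3 and 39.4 CPM in deficient libraries against 94.6, 102 and 110.3 CPM in control libraries. The 2 ranges were separate, with a log2 fold change of -1.17 ± 0.14 (SE; edgeR adjusted p = 4.08e-05). Pttg1, securin, which holds separase inactive until anaphase, had 19.0, 30.4, 32.6, 31.0, 36.6, 33.3 and 31.8 CPM in deficient libraries and 90.2, 93.1 and 79.7 CPM in control libraries. It was also separate in the 2 groups, at -1.61 ± 0.15 (SE; edgeR adjusted p = 3.33e-06), and unlike the others it was lowest in deficient library 1 and highest in library 5. Cdca3, an F-box-like protein also called TOME-1 that promotes WEE1 destruction, had 54.6, 57.1, 55.5, 68.3, 35.2, 42.4 and 47.9 CPM in deficient libraries and 70.5, 67.5 and 69.9 CPM in control libraries. Library 4 overlapped the controls and the other 6 did not, at a log2 fold change of -0.53 ± 0.16 (SE; edgeR adjusted p = 0.0153), which was -0.45 and no longer passed in batch 1 alone (edgeR adjusted p = 0.108). Ube2c, the ubiquitin-conjugating enzyme of the complex, fell by 1.47, with 22.8% of its exon bases opposite Tnnc2.

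The 8 kinesins, motors that move along microtubules, all fell, with a median of -1.31. Kif23, a motor of the central spindle whose fall was the largest of the 46 and close to that of Cdc25c, had 55.9, 53.9, 54.8, 64.6, 40.7, 40.7 and 40.2 CPM in deficient libraries against 177, 173 and 179.7 CPM in control libraries. The groups were far apart, at a log2 fold change of -1.93 ± 0.11 (SE; edgeR adjusted p = 1.76e-08). The gene (ENSMUSG00000032254) lies on the minus strand at chr9:61915905-61946774 on GRCm38. At the other end, Kif11, the motor Eg5 that pushes spindle poles apart, had 233, 203, 228, 247, 146, 139 and 149 CPM in deficient libraries and 245, 258 and 264 CPM in control libraries. Deficient library 4 touched the control range, and library 1 came close, with a log2 fold change of -0.55 ± 0.16 (SE; edgeR adjusted p = 0.0188). In batch 1 alone Kif11 was at -0.35 and did not pass (edgeR adjusted p = 0.142), and in batch 2 alone it fell by 0.93. Kif14, a motor of cytokinesis, fell by 1.68 and Kif20a, a central spindle motor, by 1.52, although 29.3% of Kif20a exon bases lie opposite Cdc23. Kif2c, which depolymerises microtubules at centromeres, fell by 1.34, and the chromokinesin Kif4 by 1.27. Kif15, which backs up Eg5, fell by 0.68 and Kif20b, a motor of late cytokinesis, by 0.63.

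Of the 6 spindle assembly genes all fell, with a median of -1.21. Ckap2l, a spindle pole and microtubule protein, had 48.8, 45.2, 46.1, 48.6, 30.8, 25.8 and 34.4 CPM in deficient libraries against 99.8, 109 and 103 CPM in control libraries. All 7 lay below the controls, at -1.51 ± 0.15 on the log2 scale (SE; edgeR adjusted p = 1.03e-05). Nusap1, which bundles microtubules near chromosomes, had 127, 131, 136, 171, 112, 106 and 122 CPM in deficient libraries and 208, 197 and 204 CPM in control libraries. It was the least changed of this group and still did not overlap, at a log2 fold change of -0.75 ± 0.10 (SE; edgeR adjusted p = 1.98e-05). Hmmr, a centrosomal hyaluronan-binding protein, fell by 1.29, Prc1, the crosslinker of the central spindle, by 1.23, and Dlgap5, which stabilises kinetochore fibres, by 1.19. Tpx2, the activator of Aurora A, fell by 0.91. The 3 cytokinesis genes fell as well, with a median of -1.10. Anln, anillin of the contractile ring, had 44.6, 39.9, 47.7, 51.8, 32.1, 30.7 and 36 CPM in deficient libraries against 83.6, 88.7 and 90.2 CPM in control libraries. Racgap1, the partner of KIF23 in centralspindlin, had 78.2, 77, 81.2, 92.5, 63.7, 68.0 and 69.3 CPM in deficient libraries and 147, 145 and 154 CPM in control libraries. Neither gene overlapped between groups, and the log2 fold changes were -1.23 ± 0.13 for Anln (SE; edgeR adjusted p = 4.46e-06) and -1.07 ± 0.09 for Racgap1 (SE; edgeR adjusted p = 5.99e-08). Ect2, the exchange factor that activates RhoA at the cleavage site, fell by 1.10.

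**Figure D2:**
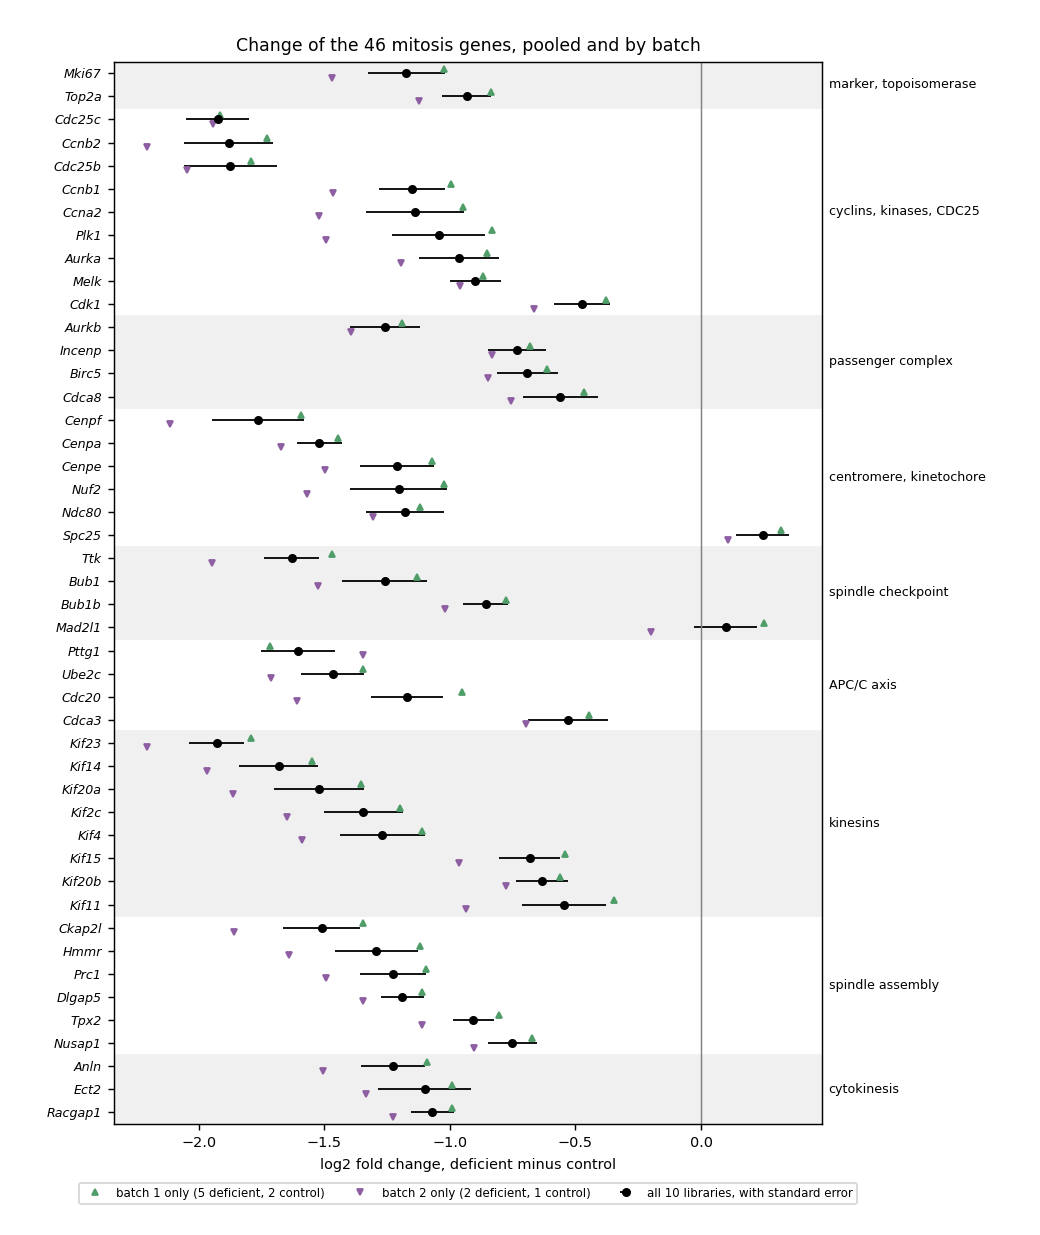
Each row is 1 mitosis gene by role, and the x axis is the log2 fold change, deficient minus control. Black circles with standard errors use all 10 libraries, green triangles batch 1 alone and purple triangles batch 2 alone. The pooled values run from -1.93 for Kif23 to 0.25 for Spc25, and the batch 2 value is the lower one in 45 of 46 genes.

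The fall was present within each batch. In batch 1, with 5 deficient and 2 control libraries, 41 of 46 genes were lower and 0 higher, against 23.6% of all genes lower and 24.7% higher, and the median log2 fold change was -1.02. In batch 2, with 2 deficient libraries and 1 control library assumed to vary like them, 44 were lower and 0 higher, against 23.4% of all genes lower and 23.5% higher, and the median was -1.47. The difference was in the same direction in 45 of 46 genes, with Pttg1 the exception. The share of all genes with that direction was not counted, and all 46 genes rest on the same 1 control library in batch 2. Tested as the product of diet and batch over all genes, it passed in 0 members and in 0.0% of all genes by edgeR. At an unadjusted p below 0.05 it was met by 2 members, Ttk and Cdc20, against 4.16% of all genes, and DESeq2 also called 0 members. Batch 2 minus batch 1 was itself negative in 45 members, with a median of -0.24, against a median of 0.003 over all genes tested. The share of all genes with a negative value was not counted. Of the members 0 passed by edgeR or DESeq2, with 4 at an unadjusted p below 0.05 against 3.38% of all genes in that direction. Leaving out deficient library 5, a batch 1 library, gave 15 members that passed as lower in batch 2 than in batch 1, against 1.87% of all genes tested.

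The mitosis genes also varied more among the deficient libraries than among the controls. Their coefficient of variation ran from 12.6% to 28.4% over the 7 deficient libraries, against 0.541% to 10.2% over the 3 control libraries, and was the larger in deficient libraries for 46 of 46 genes. The median coefficient over the members was 19.955% in deficient and 3.89% in control libraries. The 9068 other genes of the same CPM range had a median coefficient of 9.76% in deficient and 7.16% in control libraries. How many of those other genes had the larger coefficient in deficient libraries was not counted. Ccna2 varied most, with 155, 167, 156, 211, 103, 98 and 114 CPM in deficient libraries against 286, 285 and 291 CPM in control libraries. Libraries 5, 6 and 7 were all below libraries 1 to 4 in 42 members, whereas 13.4% of all genes tested had that order. The 4 members without it were Cdc25b, Cdc25c, Spc25 and Pttg1. Deficient library 4 was the highest of the 7 in 30 members, and libraries 5 and 6 were the lowest in 22 and in 19. This division crosses the batch labels, since library 5 belongs to batch 1. Replication licensing genes had a similar division, with medians below the deficient mean in libraries 5 to 7 and above it in libraries 1 to 4. Among the mitosis genes, 42 had a Pearson r above 0.8 with the mean of the standardised members over the 7 deficient libraries. All genes measured in these libraries share their depth and culture, and each member contributes to that mean. The share of all genes above 0.8 was not counted, so the 42 cannot be read as a trait particular to the mitosis genes. Pttg1 was the only member with a negative r, at -0.49, and Mki67 had the highest, at 0.998.

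**Figure D3:**
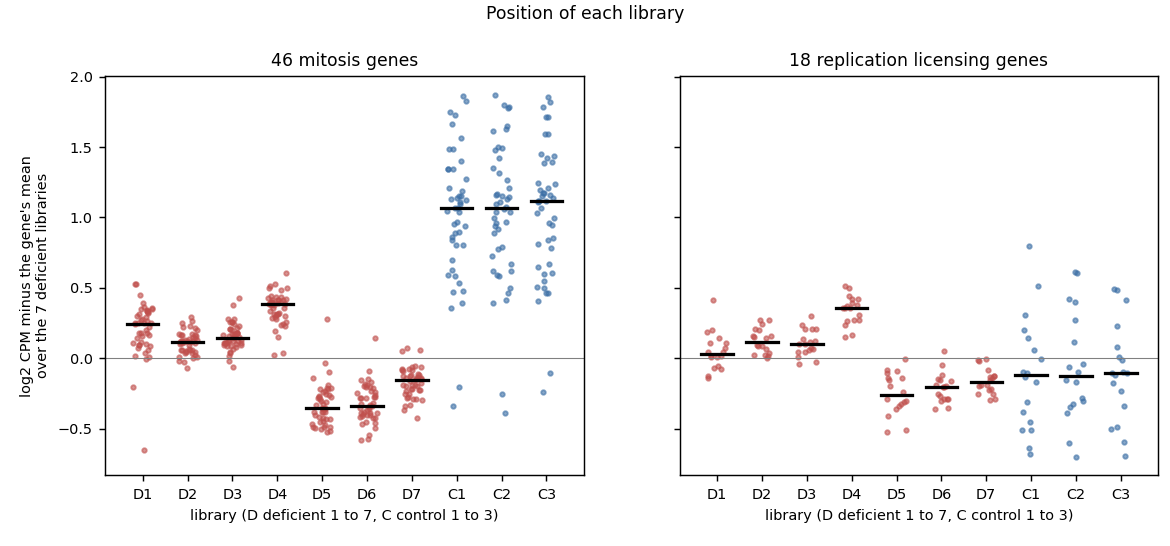
Each point is 1 gene, and the y axis is its log2 CPM minus its mean over the 7 deficient libraries. Deficient libraries D1 to D7 are red and control libraries C1 to C3 blue, with black bars for medians, for the 46 mitosis genes on the left and 18 replication licensing genes on the right. Mitosis gene medians are 0.25, 0.11, 0.15, 0.38, -0.35, -0.34 and -0.16 in D1 to D7 and 1.07, 1.07 and 1.12 in C1 to C3, and the licensing medians are 0.03, 0.12, 0.10, 0.36, -0.26, -0.20 and -0.17 in D1 to D7 and -0.12, -0.13 and -0.11 in C1 to C3.

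Markers of several other cell types moved with this division, those of CD8 T cells and B cells among them. The CD8 T cell markers Cd8a, Cd8b1, Eomes and Gzmk summed to 42.7, 53.0, 32.6, 46.3, 166, 158 and 126 CPM in deficient libraries 1 to 7 and to 9.83, 9.78 and 21.5 CPM in control libraries. The B cell markers Cd79a, Cd79b, Ms4a1, Pax5 and Ebf1 summed to 11.9, 24.9, 11.7, 20.2, 91.8, 88.8 and 99.5 CPM in deficient libraries and to 5.52, 7.54 and 52.8 CPM in control libraries. Of these, only Cd79a passed between the groups, at 2.24 (edgeR adjusted p = 0.0399). Cd79b, Ms4a1 and Pax5 were higher without passing. Ebf1 went the other way without passing, at -1.13, and was at -2.19 without libraries 5 to 7. Both sums were highest in deficient libraries 5 to 7, in which most mitosis genes were lowest, and their part in the spread and in the fall was not tested. Without libraries 5 to 7, 44 of 46 members were still lower, against 27.9% of all genes, with a median log2 fold change of -0.92, and 2 members, Spc25 and Mad2l1, were higher, against 28.5% of all genes. Of the other lists, NK cell markers summed to at most 7.89 CPM in deficient and 3.56 CPM in control libraries, and macrophage markers to at most 6.65 in deficient and 14.9 in control libraries. Dendritic cell markers summed to at most 20.1 in deficient and 10.7 in control libraries, and granulocyte and mast cell markers to at most 25.6 in deficient and 4.65 in control libraries. The NK cell, dendritic cell, and granulocyte and mast cell sums were also higher in each of deficient libraries 5 to 7 than in any of libraries 1 to 4. The macrophage sum was not so ordered, and the part of these lists was not tested. Erythroid markers were at 0.711 CPM or less in deficient and 0.481 or less in control libraries, with Hbb-bt, Hba-a1 and Hba-a2 at 0 in all 10, although the library kit removes globin RNA.

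By correlation with the mean of the standardised members over the 7 deficient libraries, the 10 most similar of 8506 other genes with a mean of at least 10 CPM were Nsl1, Akap8, Brca2, Anp32e, Wdr76, Kif18a, Cip2a, Creb1, Tcf19 and Fancd2. Their r ran from 0.985 for Fancd2 to 0.999 for Nsl1, as a description over 7 points that share their libraries. Their differences between the deficient and control groups were mixed. Kif18a, a kinesin of chromosome alignment, was at -1.48 on the log2 scale (edgeR adjusted p = 1.28e-07), Cip2a, an inhibitor of protein phosphatase 2A, at -1.07 (edgeR adjusted p = 8.67e-07) and Brca2, of DNA repair, at 0.05 (edgeR adjusted p = 0.82). Anp32e, a chaperone of histone H2A.Z, was higher by 0.39 (edgeR adjusted p = 0.000476).

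Other genes of the cell cycle were counted in 10 lists, of which 159 of 161 genes were tested, and their counts stand beside 28.6% lower and 29.4% higher over all genes. Other kinesin and spindle genes resembled the mitosis genes, with 20 of 23 lower, 3 higher and a median of -1.18. Among them Tacc3, a microtubule protein of the spindle, was at -1.68 (edgeR adjusted p = 7.97e-10) and Ckap2, a spindle pole protein, at -1.25 (edgeR adjusted p = 5.26e-09), while Kif1c, Gtse1 and Psrc1 were the higher ones. Other kinetochore and checkpoint genes were lower in 21 of 32 and higher in 1, with a median of -0.50, with Hjurp, the CENP-A chaperone, at -0.99 (edgeR adjusted p = 1.27e-06). Condensin genes, which compact chromosomes, were lower in 7 of 8, with a median of -0.66, Smc4 at -0.95 (edgeR adjusted p = 4.03e-08) and Ncaph2 at -0.65 (edgeR adjusted p = 2.22e-07). Cohesin and separase genes were lower in 9 of 13 and higher in 1, with a median of -0.67, Stag2 at -0.84 (edgeR adjusted p = 4.58e-09) and the loader Nipbl at -0.76 (edgeR adjusted p = 2.11e-07).

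The subunits and inhibitors of the anaphase-promoting complex were lower in 8 of 17 and higher in 3, with a median of -0.18, and its coactivator Fzr1 (CDH1) was at -1.003 (edgeR adjusted p = 3.93e-08) and its subunit Cdc27 at -0.89 (edgeR adjusted p = 5.97e-08). Transcription regulators were lower in 8 of 23 and higher in 6, shares near those of all genes, with a median of -0.16. Foxm1 had 17.4, 12.5, 12.1, 12.3, 7.69, 8.78 and 10.2 CPM in deficient libraries against 24.0, 19.6 and 24.6 CPM in control libraries. No overlap was present, and the log2 fold change was -1.08 ± 0.21 (SE; edgeR adjusted p = 0.000785). Mybl2, which encodes B-MYB, was at -0.16 (edgeR adjusted p = 0.405) and E2f4, the E2F of the DREAM complex, at 0.05 (edgeR adjusted p = 0.804). Rbl2, its pocket protein p130, was at -1.06 (edgeR adjusted p = 1.96e-05), Lin54, the subunit that contacts the CHR, at -0.20 (edgeR adjusted p = 0.0286), Tfdp1, the dimer partner of E2F proteins, at 1.06 (edgeR adjusted p = 2.01e-09) and Rbbp4 of the MuvB core at 0.65 (edgeR adjusted p = 3.71e-06). The Lin54 call was lost without control library 1, at -0.12, and without deficient library 3, at -0.17, and with scaling by total counts, at -0.12.

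Of the lists of genes that act before mitosis or restrain it, 1 held G1 cyclins, their kinases and Myc. In that list 5 of 8 tested were higher and 0 lower, with a median of 0.43. Cyclin D2, Ccnd2, had 592 to 677 CPM in deficient libraries, with a median of 619.9, against 212, 230.4 and 236 CPM in control libraries. Every deficient library was above every control, at a log2 fold change of 1.37 ± 0.05 (SE; edgeR adjusted p = 3.47e-11), and its kinase Cdk4 was at 0.51 (edgeR adjusted p = 1.49e-05). CDK inhibitors were lower in 2 of 6 tested and higher in 2, with a median of -0.32. Cdkn1a, p21, had 53.9 to 80.1 CPM in deficient libraries, with a median of 68.8, against 14.7, 17.6 and 11.6 CPM in control libraries. The lowest deficient library was above the highest control, at a log2 fold change of 2.11 ± 0.15 (SE; edgeR adjusted p = 1.51e-07), whereas Cdkn1b, p27, was at -0.97 (edgeR adjusted p = 2.27e-08). Replication licensing genes prepare origins for S phase, and their list also held Gmnn and Pcna. Of these 18 genes 4 were lower and 4 higher, with a median of 0.02. Mcm7 was at 0.56 (edgeR adjusted p = 2.26e-05), Gins4 at -0.55 (edgeR adjusted p = 8.49e-05) and Mcm2 at 0.35 (edgeR adjusted p = 0.0177), although Mcm2 did not pass without control library 1, at 0.31. In the list of inhibitory kinases and the mitotic phosphatase axis 2 of 11 were lower and 6 higher, with a median of 0.22. Arpp19 and Ensa, both inhibitors of the phosphatase PP2A-B55 during mitosis, were at 1.27 (edgeR adjusted p = 1.25e-09) and 0.63 (edgeR adjusted p = 8.04e-07), and Wee1, the kinase that restrains CDK1, was at -0.34 (edgeR adjusted p = 0.0784).

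**Figure D4:**
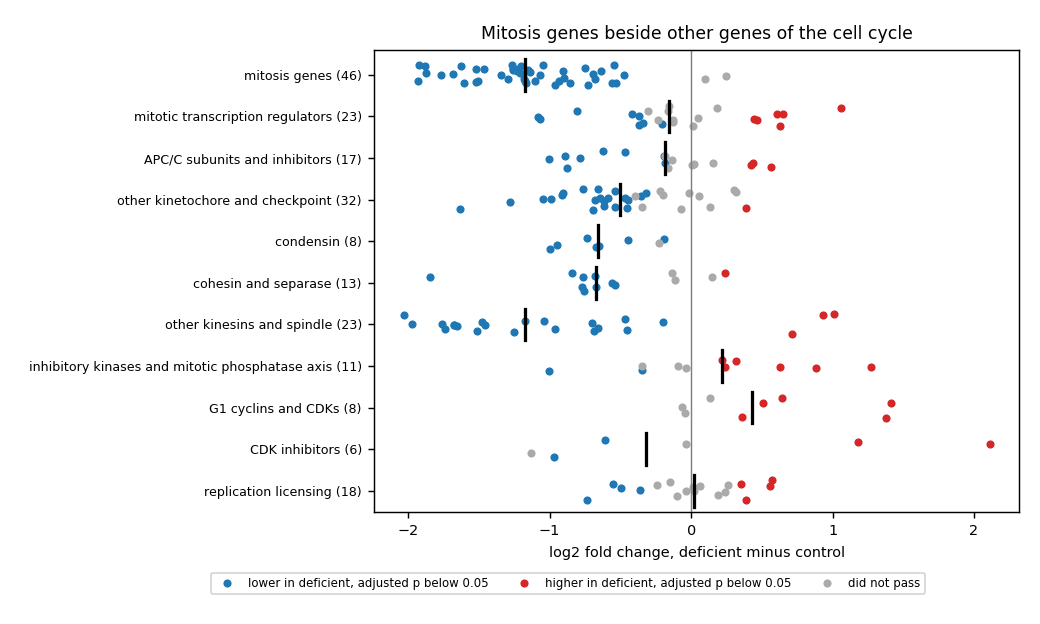
Each point is 1 gene, and the x axis is the log2 fold change, deficient minus control. The top row holds the 46 mitosis genes and the rows below it the 10 lists of other cell cycle genes, coloured by whether the gene was lower, was higher or did not pass at an adjusted p below 0.05. The mitosis genes centre on -1.18 and the other kinesin and spindle genes on -1.18. The list of G1 cyclins, their kinases and Myc centres on 0.43 and that of replication licensing genes on 0.02.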

How the data were processed

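Per the labels' protocols, total RNA of TH2 cells harvested on day 5 was sequenced with the TruSeq stranded kit that removes globin RNA. The authors deposited 1 table of raw counts, by Ensembl ID, in 10 libraries. STAR 2.7.10a, HTSeq 0.13.5 and GRCm38 are named in the submitters' processing notes. Neither the strand setting nor the annotation release is given in the sources used here, and members with an antisense neighbour are therefore uncertain. Besides those named above, these include Kif4 (15.1% of exon bases opposite Pdzd11), Ccna2 (12.5%, opposite Exosc9) and Prc1 (11.1%, opposite Rccd1). The share of 50-base stretches that recur in other genes was 14.5% for Kif4, 11.4% for Ccna2, 10.6% for Cdc20 and 10.4% for Plk1.

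Symbols and loci came from GENCODE M21, which matched 49412 of 49671 IDs, and the other 259 held 0.0226% of counts. Replicate numbers were given in accession order. Every pair of replicates differed beyond sampling noise, with a chi-square per gene from 2.82 to 49.9.

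All genes were fitted in R 4.3.3 with edgeR 4.0.16 (filterByExpr with minimum count 10, TMM, robust glmQLFit, glmQLFTest) with terms for diet and batch, which tested 13699 genes at a common biological coefficient of variation of 12.7%. Calls used a Benjamini-Hochberg adjusted p below 0.05, and CPM used column totals. On simulated counts of 13278 genes for deficient against control, the fit recovered 44 of 67 true 1.5-fold changes. It recovered 66 of 67 that were 2-fold and 66 of 66 that were 4-fold, and made 7 false calls. In the simulation only those genes changed, every gene had the 12.7% variation in both groups, and batch had no effect. Real counts differ in these respects, so the 7 false calls are not an error rate for them. Alternatives covered other scalings and filters, DESeq2 1.42.0, limma-voom 3.58.1, each batch alone and subsets of libraries.

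The members and lists were chosen with earlier results of these data known. All 46 members are named. Values in every library are given for the lowest and highest fold change of each of 9 role groups and for Mki67, Top2a, Cdk1, Ccnb1, Cdc20 and Aurkb. In each other list the 2 genes of smallest p are named, besides 9 regulators. In all, 1 gene of those lists and 1 B cell marker are not reported here. Kif1c, Gtse1, Psrc1, and the values given for Ccna2, Kif18a, Cip2a, Brca2 and Anp32e, were chosen after values were seen.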

Additional observations from a re-analysis of the deposited data

Results flagged for a closer look

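Among the 7 deficient libraries, a value stood far from the rest for 4 of 73 genes examined, 46 mitosis genes and 27 other cell cycle genes. Chance sets such a value apart in about 1 of 20 groups. Deficient library 4 was the highest for 3 of them, with 65.4 CPM of Spc25, 91.1 CPM of Lin54 and 147 CPM of Tfdp1. Deficient library 1 was the lowest for Pttg1, at 19.0 CPM. The cause was not tested.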

How the results depend on the processing

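No paired analysis was possible because the labels give no replicate numbers and those used here follow accession order. The count of lower members was 30 with a 2-fold threshold added and 41 to 44 under the other scalings, filters, tools, thresholds and subsets of libraries, with 41 to 44 when 1 library was left out. The count of higher members, 0, became 1 with upper quartile scaling, total counts or male libraries only, and 2 with no count filter or without deficient libraries 5 to 7. It ran from 0 to 1 when each library was left out, and was 1 without deficient library 1 or 5. The gene concerned was Spc25, and Mad2l1 where there were 2. With no count filter the median of all genes was 0.18 higher. The member median was -1.47 in batch 2 alone. With a 2-fold threshold added, 1193 genes were lower and 1409 higher over all genes. The count of members lower in batch 2 ran from 0 to 15 when each library was left out, with 15 without deficient library 5. The summed control mean was 8971 CPM on TMM-scaled totals and 8940.3 CPM with DESeq2 size factors. Without control library 3, Cdca8, Cdca3 and Kif11 no longer passed, at -0.47, -0.45 and -0.35, and without control library 1 Cdca3 did not pass, at -0.52. Kif11 did not pass with no count filter, at -0.44, nor did Lin54 with total counts, no filter, batch 2 alone or male libraries only, at -0.12, -0.09, -0.09 and -0.16. Wee1 passed without deficient library 1, at -0.40, and in batch 2 alone, at -0.54. Genes that had not passed changed sign without passing, Mad2l1 to -0.20 in batch 2 alone, and E2f4 to -0.0345 in batch 1 alone, to -0.0304 in male libraries only and to between -0.0362 and 0.142 when each library was left out. The cause of these changes was not tested. Counting error is largest for low genes, and Plk1 rested on 46 to 133 counts in deficient and 73 to 91 in control libraries.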
